A study of Mus musculus with 10 samples.

Results

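The gene set described here holds 50 mouse genes of Golgi glycan processing: alpha-mannosidases, glycosyltransferases that add N-acetylglucosamine (GlcNAc), galactose, fucose, sialic acid or N-acetylgalactosamine (GalNAc), and enzymes and transporters that make or carry their sugar-nucleotide donors. The members were taken by name, by a rule that uses no measured value, though with earlier results of these data known. All 50 were found among the 51670 gene models of the expression table. They were compared between haematopoietic stem cells of mice given tunicamycin and of mice given the vehicle DMSO, enzyme class by enzyme class.

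Proteins that enter the secretory pathway receive a preassembled N-glycan in the endoplasmic reticulum, which is trimmed and then rebuilt in the Golgi: mannosidases remove mannose, GlcNAc-transferases start the antennae, and galactose, fucose and sialic acid finish them. Mucin-type O-glycans start in the Golgi instead, when a GalNAc-transferase adds GalNAc to serine or threonine. Tunicamycin blocks Dpagt1, the enzyme of the first step of the N-glycan precursor, and so causes unfolded proteins to build up. On blood cells, fucosylated and sialylated glycans serve as ligands of selectins, the adhesion receptors used in homing to the marrow.

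Tunicamycin libraries (5) came from C57BL/6J mice of wild-type genotype that received 2 mg/kg of the drug by intraperitoneal injection, and DMSO libraries (5) from mice of the same strain and genotype that received the vehicle by the same route. In both groups the cells were sorted from bone marrow as CD48-CD150+LSK, the surface phenotype of long-term haematopoietic stem cells (LSK: lineage-negative, Sca-1+, c-Kit+). Total RNA was reverse-transcribed and amplified by Geo-seq, a method for small cell numbers, and sequenced. The labels give neither the time between injection and sorting, nor the number of cells, nor whether each library came from its own mouse, so the spread behind each p-value is that between libraries and may be technical.

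Values are FPKM, fragments per kilobase of transcript scaled to the size of the library, so that levels of different genes can be compared per length. A gene was tested when it reached 1 FPKM in at least 5 of the 10 libraries. Differences are log2(FPKM + 1) in Tunicamycin minus DMSO from limma, a linear model fitted over all 14727 genes tested, and a gene is called at a Benjamini-Hochberg adjusted p under 0.05. Folds are ratios of group means in FPKM.

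Some libraries stood apart. Tunicamycin replicate 1 holds whole numbers only, so its low values are coarse, and it was the lowest of the 5 treated libraries for 16 of the 22 members called higher. DMSO replicates 3 and 5 had almost no Xist, at 0.15 and 0.0654 FPKM, where the other 8 libraries had 28.2 to 35.6 FPKM. Protein-coding Y-linked genes summed to 73.0 and 61.0 FPKM in these replicates, against 1.43 to 8.16 FPKM in the other 8 libraries. These DMSO libraries thus differed from all others, and from all treated ones, in sex-linked transcripts. Of the genes described below, C1galt1c1, Slc35a2 and Renbp lie on the X chromosome. In the 9 libraries with decimals the smallest steps between values correspond to depths of 18500000 to 60200000 reads. At these depths 1 read in a gene of 2 kb is worth 0.00831 to 0.0270 FPKM. The unfolded protein response genes Hspa5 and Ddit3 were higher by 2.12 and 2.40 log2 units in Tunicamycin than in DMSO, and the tunicamycin target Dpagt1 by 0.68.

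The sorted population kept its stem cell markers: 10 of 10 were tested, 7 were called higher and none lower, and their summed level was 497 to 720 FPKM in Tunicamycin and 346 to 501 FPKM in DMSO. Markers of other cells also moved. Macrophage markers, such as C1qa and Cd5l, were called higher for 13 of 14, with a sum of 2316 to 6665 FPKM in Tunicamycin and 549 to 1294 FPKM in DMSO. Endothelial markers were called higher for 9 of 9 tested, with a sum of 107 to 242 FPKM in Tunicamycin and 42.3 to 81.3 FPKM in DMSO, and stromal markers for 6 of 7, with 224 to 619 FPKM in Tunicamycin and 25.3 to 187 FPKM in DMSO. Megakaryocyte markers were called higher for 4 of 5, B cell markers for 3 of 4 and T and NK cell markers for 1 of 2, while neutrophil markers were called for 0 of 8. Of 10 erythroid markers 6 were called higher and 4 lower. Over all genes tested the shares were 29.9% higher and 15.4% lower. Without the 2 DMSO libraries lacking Xist, 3130 of 14157 genes were called higher and 1614 lower. Higher calls there were 4 of 10 for stem cell, 9 of 14 for macrophage and 6 of 9 for endothelial markers. They were 4 of 7 for stromal, 4 of 5 for megakaryocyte and 2 of 4 for B cell markers. T and NK cell markers had 1 of 2, neutrophil markers 0 of 8, and erythroid markers 6 higher and 3 lower. Markers at 0 FPKM in Tunicamycin replicate 1, whose values have no decimals, included Col3a1, Ly6g, Ms4a1, Pax5, Cd3e, Cd3g and Cd3d, and no listed marker was at 0 in the other 9 libraries. The part of these cells in the changes described here was not tested, and in bulk samples fewer cells of a type and less RNA per cell cannot be told apart.

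Of the 50 members, 46 were tested, and 22 of these were called higher in Tunicamycin than in DMSO, 0 lower and 24 not called. That is 47.8% of the members tested, against 29.9% of all genes tested that were called higher and 15.4% called lower. Galnt3 and Galnt12 were tested through their Tunicamycin values alone, and without them 20 of 44 members were called higher. For 0 lower members the count at an unadjusted p under 0.05 was also 0 in the limma fit, against 28 higher members. Of all 14727 genes tested, 7725 had an unadjusted p under 0.05 in that fit, counting both directions. The median log2 difference of the 46 members was 0.38, with quartiles of 0.10 and 0.61, while that of all genes tested was 0.18, with quartiles of -0.17 and 0.51. The 5 Tunicamycin values all lay above the 5 DMSO values for 17 members, and in no member did they all lie below. For Fut4, Fut11, Pofut2, St3gal1, Galnt11 and Galnt12 this order rests on Tunicamycin replicate 1. It would not be certain if that library was rounded to the nearest whole number. Galnt3 and Galnt12 are among the 17, where the filter fixed this in advance, since all their DMSO values were under 1 FPKM. Groups failed to overlap in the higher direction for 19.2% of all genes tested and in the lower direction for 11.0%.

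These counts depend on how libraries are scaled. With each library shifted to the same median, 20.0% of all genes were called higher and 27.4% lower, and the members split into 14 higher and 6 lower. With quantile normalization the members split into 16 higher and 7 lower, where 3425 of 14727 genes were called higher and 3767 lower. The 6 genes called lower under both scalings were St3gal4, St3gal6, Galnt1, C1galt1, Slc35a1 and Gne, and St3gal3 was the seventh under quantile normalization. TPM scaling gave 31 members higher and 0 lower, where 5481 of 14727 genes were called higher. With decimals dropped in every library 26 members were higher and 0 lower, where 4820 of 14727 genes were called higher. Leaving out the 2 DMSO libraries without Xist left 14 members called higher and 0 lower, where 3130 of 14157 genes were called higher. Leaving out Tunicamycin replicate 1 gave 28 higher and 0 lower, where 5841 of 14313 genes were called higher. Leaving out Tunicamycin replicate 1 and those DMSO libraries together gave 23 higher and 0 lower, where 4723 of 13522 genes were called higher. Members called higher in the 5 against 5 comparison and in all other settings tried numbered 13: Man1a, Man2a2, Mgat2, Mgat4b, B4galt1, Fut4, Fut8, Pofut2, St6gal1, Galnt11, Gcnt1, Slc35c1 and Cmas. Of the other 9, the same 8 lost their call with no filter, with equal medians and without the DMSO libraries lacking Xist: Man2a1, B4galt4, B4galt7, Fut11, St3gal1, St6galnac4, St8sia4 and Galnt12. Quantile normalization ended the calls of 6 of these 8, all but B4galt4 and Fut11, and the ninth, Galnt3, kept its call wherever it could be tested. The statements below hold for the values as deposited, and the single libraries on which a call depends are named with each gene.

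**Figure D1:**
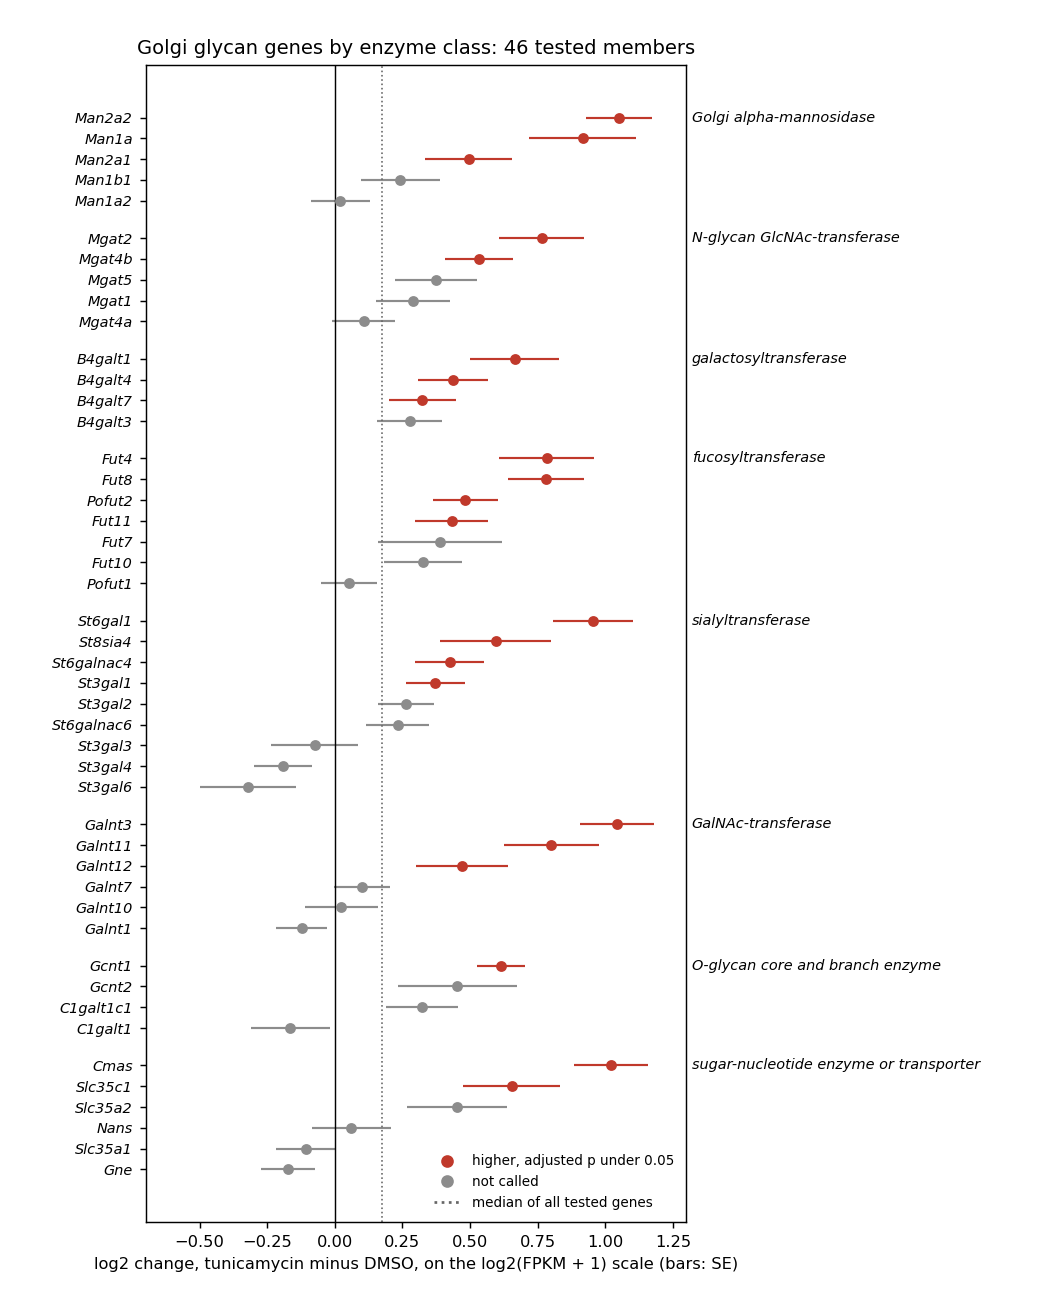
Log2 difference (log2(FPKM + 1), Tunicamycin minus DMSO) of the 46 tested members by enzyme class, with bars of 1 standard error from limma, filled where the adjusted p is under 0.05. Most points lie to the right of 0, Man2a2, Galnt3 and Cmas reach about 1, and the points left of 0, among them St3gal6, St3gal4 and Gne, are not called.

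Alpha-mannosidases trim the N-glycan. Man1a, Man1a2 and Man1b1 remove the outer mannoses, and Man2a1 and Man2a2 remove a further pair, which commits the glycan to the complex type. Of 5 members, all tested, 3 were called higher (60%, against 29.9% of all genes tested), and the class median was 0.49 log2 units. Man2a2, the member with the highest mean of the class over all 10 libraries, had 17, 19.7, 19.9, 18.9 and 13.7 FPKM in Tunicamycin, against 8.06, 8.50, 8.63, 8.40 and 6.62 FPKM in DMSO. Every treated library lay above every DMSO library, and the fold was 2.22 (17.8 ± 2.60 FPKM in Tunicamycin and 8.04 ± 0.821 FPKM in DMSO, SD, n = 5 each; log2 difference 1.05 ± 0.12 SE, limma adjusted p = 3.72e-05). Its gene lies at chr7:80349097-80371375 on the minus strand (mm10, GENCODE M21). Man1a had 8, 14.6, 9.78, 10.4 and 19.1 FPKM in Tunicamycin, against 4.501, 6.54, 6.34, 6.59 and 5.26 FPKM in DMSO. Again the groups did not overlap, although the treated libraries spread widely, with replicate 5 highest (log2 difference 0.92 ± 0.20 SE, limma adjusted p = 0.00252).

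Man2a1, the paralog of Man2a2, was present at a lower level, with 2, 3.34, 2.01, 2.31 and 3.27 FPKM in Tunicamycin, against 2.16, 1.28, 1.54, 1.31 and 1.35 FPKM in DMSO. DMSO replicate 1 lay above Tunicamycin replicates 1 and 3, and the difference of 0.49 ± 0.16 SE (limma adjusted p = 0.0242) was not called once any one of Tunicamycin replicates 2 or 5 or DMSO replicates 2, 4 or 5 was left out. Man1a2 had 6, 7.86, 6.73, 6.98 and 8.55 FPKM in Tunicamycin, against 7.95, 6.83, 6.69, 6.75 and 7.15 FPKM in DMSO. Its groups lay on each other, with averages of 7.22 ± 0.997 FPKM in Tunicamycin and 7.07 ± 0.519 FPKM in DMSO. Man1b1 averaged 10.2 ± 2.65 FPKM in Tunicamycin and 8.27 ± 0.647 FPKM in DMSO (SD, n = 5 each). Neither was called, with limma adjusted p = 0.898 for Man1a2 and 0.198 for Man1b1. Man1a and Man1a2 encode enzymes of the same step, and the log2 ratio of Man1a over Man1a2 was 0.65 ± 0.29 in Tunicamycin and -0.25 ± 0.29 in DMSO (SD, n = 5 each). Their unequal change, a difference of 0.90, passed an exact two-sided permutation test over all assignments of libraries to groups (p = 0.00794, the smallest it can give, 0.0179 adjusted over 9 pairs). Man2a1 over Man2a2 had a log2 ratio of -2.40 ± 0.40 in Tunicamycin and -1.84 ± 0.23 in DMSO, and its difference of -0.56 did not pass (exact permutation p = 0.0397, adjusted 0.0510).

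GlcNAc-transferases start and branch the antennae of N-glycans: Mgat1 opens the first antenna, Mgat2 the next, Mgat4a, Mgat4b and Mgat5 add further branches, and Mgat3 adds the bisecting GlcNAc. Of 6 members 5 were tested and 2 were called higher, which is 40%, near the 29.9% of all genes tested. Without Tunicamycin replicate 1 the count was 4, where 5841 of 14313 genes were called higher. Mgat2 had 52, 54.5, 44.6, 39.6 and 75.6 FPKM in Tunicamycin, against 31.8, 31.5, 33.8, 25.3 and 29.2 FPKM in DMSO. All treated libraries were above all DMSO libraries (53.2 ± 13.8 FPKM in Tunicamycin and 30.3 ± 3.25 FPKM in DMSO; log2 difference 0.76 ± 0.16 SE, limma adjusted p = 0.00179). Mgat4b had 8, 11.1, 7.63, 7.86 and 10.3 FPKM in Tunicamycin, against 6.75, 5.14, 6.21, 5.49 and 5.67 FPKM in DMSO, also without overlap (log2 difference 0.53 ± 0.13 SE, limma adjusted p = 0.00433).

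Mgat1 was the most abundant member of the class, with 49, 59.7, 62.3, 64.7 and 76 FPKM in Tunicamycin, against 41.6, 58.8, 49.3, 59.2 and 45.4 FPKM in DMSO. The groups overlapped, and its difference of 0.29 was not called (limma adjusted p = 0.104; 0.0304 without Tunicamycin replicate 1). Mgat5 averaged 6.61 ± 1.95 FPKM in Tunicamycin and 4.74 ± 0.322 FPKM in DMSO, and was not called either (limma adjusted p = 0.0610; 0.0213 without Tunicamycin replicate 1). Mgat4a, the paralog of Mgat4b, had 4, 5.14, 5.04, 5.80 and 5.84 FPKM in Tunicamycin, against 5.08, 4.20, 4.99, 4.74 and 4.49 FPKM in DMSO. The groups overlapped, and it averaged 5.16 ± 0.748 FPKM in Tunicamycin and 4.70 ± 0.363 FPKM in DMSO (limma adjusted p = 0.479). The log2 ratio of Mgat4a over Mgat4b was -0.69 ± 0.24 in Tunicamycin and -0.26 ± 0.06 in DMSO, a difference of -0.43 (exact permutation p = 0.00794, adjusted 0.0179). Mgat4b was the higher of the pair in both group means, by more in Tunicamycin than in DMSO. Mgat3 did not reach the level for testing and had at most 0.161 FPKM in any library.

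**Figure D2:**
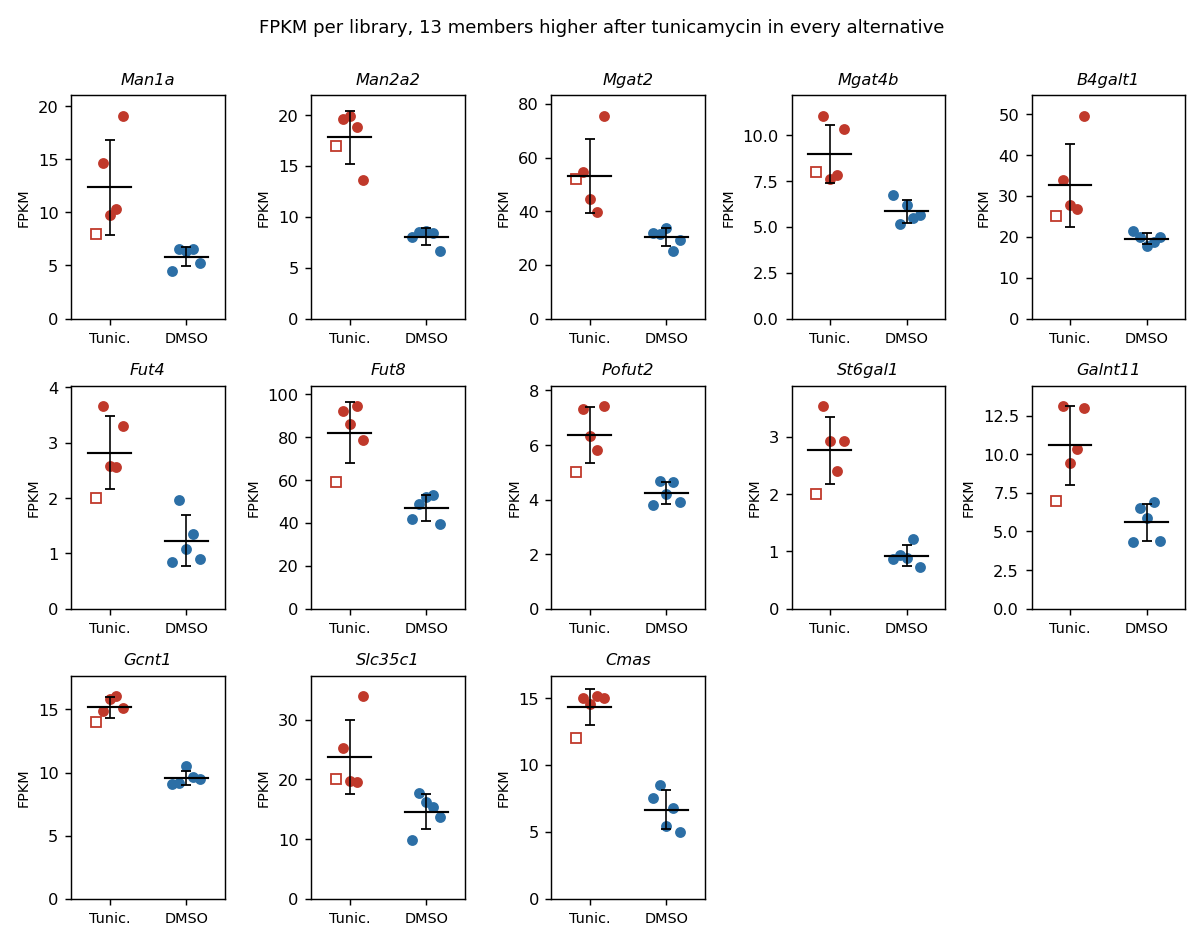
FPKM in each library of the 13 members called higher in all settings tried, Tunicamycin at the left of each panel and DMSO at the right, with the group mean and SD as bars; the open square is Tunicamycin replicate 1, which holds whole numbers. In each panel the Tunicamycin points lie above the DMSO points, as for Fut8, at 59 FPKM or more in Tunicamycin and 53.0 FPKM or less in DMSO.

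Galactosyltransferases of the B4galt family add galactose to GlcNAc on N- and O-glycans and glycolipids, except B4galt7, which builds the linker of glycosaminoglycans on proteoglycans. Of 6 members 4 were tested and 3 were called higher (75%, against 29.9% of all genes tested). B4galt1, the main enzyme for N-glycans and the most abundant of the class, had 25, 33.9, 27.8, 26.7 and 49.6 FPKM in Tunicamycin, against 21.5, 20.0, 17.6, 18.8 and 20.0 FPKM in DMSO. No library overlapped, and Tunicamycin replicate 5 stood well above the other 4 (log2 difference 0.66 ± 0.16 SE, limma adjusted p = 0.00549). B4galt4 had 10, 15.5, 13.5, 12.2 and 15.2 FPKM in Tunicamycin, against 8.11, 10.5, 9.24, 10.8 and 8.74 FPKM in DMSO. Tunicamycin replicate 1 lay within the DMSO range, and the difference of 0.44 ± 0.13 SE (limma adjusted p = 0.0160) is among the 8 calls that did not hold above.

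B4galt7 had 9, 10.2, 9.99, 9.85 and 13.9 FPKM in Tunicamycin, against 7.40, 9.32, 8.92, 8.13 and 7.28 FPKM in DMSO. Its limma adjusted p of 0.0490 for a difference of 0.32 ± 0.12 SE sat at the threshold, was 0.404 with equal medians and 0.0686 with the replicate number as a block, and of the 10 fits that left out 1 library it was called in 2, those without Tunicamycin replicate 1 and without DMSO replicate 2. B4galt3 was not called, at 15.5 ± 2.73 FPKM in Tunicamycin and 12.5 ± 0.693 FPKM in DMSO (limma adjusted p = 0.0788, and 0.0117 without Tunicamycin replicate 1). B4galt2, at no more than 0.411 FPKM, and B4galt5 did not reach the level for testing. B4galt5, which acts in glycolipid synthesis, had 0, 1.38, 0.821, 0.462 and 2.18 FPKM in Tunicamycin, against 0.444, 0.449, 0.650, 0.538 and 0.274 FPKM in DMSO, and so was spread more widely among the treated libraries than in DMSO.

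Fucosyltransferases decorate glycans in different places: Fut8 adds the core fucose of N-glycans, Fut4 and Fut7 make the Lewis-type ends that selectins bind, and Pofut1 and Pofut2 act in the endoplasmic reticulum on folded repeats of proteins such as Notch receptors and thrombospondins. All 7 members were tested and 4 were called higher (57.1%, against 29.9% of all genes tested), with a class median of 0.43 log2 units. Their summed level was 95 to 148 FPKM in Tunicamycin and 70.0 to 93.0 FPKM in DMSO, a fold of 1.57 between the group means.

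Fut8 was the most abundant member of the class, with 59, 92.2, 86.2, 94.6 and 78.7 FPKM in Tunicamycin, against 41.6, 48.8, 52.1, 53.0 and 39.7 FPKM in DMSO. The lowest treated library, replicate 1, still exceeded the highest DMSO library (82.1 ± 14.3 FPKM in Tunicamycin and 47.0 ± 6.08 FPKM in DMSO; log2 difference 0.78 ± 0.14 SE, limma adjusted p = 0.000791). Fut4 was far lower, with 2, 3.67, 2.58, 2.57 and 3.30 FPKM in Tunicamycin, against 0.845, 1.97, 1.08, 1.36 and 0.897 FPKM in DMSO. Tunicamycin replicate 1 and DMSO replicate 2 were almost equal, and the fold between the means was 2.30 (log2 difference 0.78 ± 0.17 SE, limma adjusted p = 0.00307). Pofut2 had 5, 7.30, 6.31, 5.83 and 7.43 FPKM in Tunicamycin, against 3.79, 4.67, 4.19, 4.66 and 3.92 FPKM in DMSO, without overlap (log2 difference 0.48 ± 0.12 SE, limma adjusted p = 0.00628).

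Fut7, which completes sialyl Lewis x on selectin ligands of leukocytes, had 10, 17.9, 17.1, 15.8 and 19.2 FPKM in Tunicamycin, against 6.73, 14.4, 16.2, 14.7 and 9.24 FPKM in DMSO. The groups overlapped widely and it was not called (log2 difference 0.39 ± 0.23 SE, limma adjusted p = 0.185). For Fut4 over Fut7 the log2 ratio was -2.14 ± 0.19 in Tunicamycin and -2.53 ± 0.37 in DMSO (exact permutation p = 0.0714, adjusted 0.0804), so a difference between the changes of these genes was not shown, and Fut7 stayed the higher of them in all 10 libraries. Fut11 averaged 12.5 ± 2.56 FPKM in Tunicamycin and 8.90 ± 0.832 FPKM in DMSO (limma adjusted p = 0.0190), a call that was lost without Tunicamycin replicate 2. Fut10 and Pofut1 were not called, with limma adjusted p = 0.0839 for Fut10 (0.00636 without Tunicamycin replicate 1) and 0.716 for Pofut1. Pofut1, which modifies Notch, averaged 5.42 ± 0.263 FPKM in Tunicamycin and 5.21 ± 0.581 FPKM in DMSO.

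Promoter windows, 250 bases before to 50 after a RefSeq transcript start (GRCm38.p6), were at hand for 38 of the 50 members, in 55 windows. Both strands were searched for the stress elements ERSE (CCAAT, 9 bases, CCACG), ERSE-II (ATTGG, 1 base, CCACG) and UPRE (TGACGTGG), which the unfolded protein response factors ATF6 and XBP1 bind, and for CARE (TGATGNAAN), which ATF4 binds. ERSE, ERSE-II and UPRE were in 0 of the 55 windows, against 0.119%, 0.0365% and 0.676% of all 32851 windows in the table. CARE was in 2 windows, against 3.95% of all windows, and these belong to Fut8 and Galnt11. Both lie at alternative starts within the gene (Fut8 has 4 windows and Galnt11 has 2). They are shown because both genes were called higher; the capitals mark the match, which for Fut8 is read on the opposite strand and lies 98 to 90 bases before the start (chr12:77388614-77388913, plus strand), and for Galnt11 lies 36 to 28 bases before it (chr5:25246123-25246422, plus strand). A match describes letters only, and binding was not measured.
Fut8: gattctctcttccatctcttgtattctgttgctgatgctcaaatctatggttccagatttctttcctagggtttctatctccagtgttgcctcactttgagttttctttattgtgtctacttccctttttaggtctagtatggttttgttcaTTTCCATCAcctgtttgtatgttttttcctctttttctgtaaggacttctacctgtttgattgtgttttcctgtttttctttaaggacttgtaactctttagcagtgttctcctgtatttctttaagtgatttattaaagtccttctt
Galnt11: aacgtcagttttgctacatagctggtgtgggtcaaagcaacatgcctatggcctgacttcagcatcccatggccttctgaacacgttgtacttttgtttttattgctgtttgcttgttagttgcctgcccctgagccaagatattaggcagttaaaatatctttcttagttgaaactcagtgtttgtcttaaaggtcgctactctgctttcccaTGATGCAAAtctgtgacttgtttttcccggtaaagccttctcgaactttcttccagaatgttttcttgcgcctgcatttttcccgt

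Sialyltransferases cap glycans with sialic acid. St3gal1 and St3gal2 cap the galactose of O-glycans, St3gal3, St3gal4 and St3gal6 cap the ends of N-glycans and related chains, St6gal1 caps N-glycans in the linkage read by the B cell lectin CD22, St6galnac4 and St6galnac6 sialylate inner sugars, and St8sia4 makes polysialic acid. All 9 members were tested and 4 were called higher (44.4%, against 29.9% of all genes tested). The class median, 0.26, was close to the 0.18 of all genes. The sum of the class was 88 to 105 FPKM in Tunicamycin and 81.2 to 87.7 FPKM in DMSO, a fold of 1.13, the smallest of the 8 classes.

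St6gal1 had 2, 3.54, 2.93, 2.41 and 2.93 FPKM in Tunicamycin, against 0.873, 0.930, 0.893, 1.22 and 0.720 FPKM in DMSO. The groups lay well apart, with a fold of 2.98 at a low level (2.76 ± 0.584 FPKM in Tunicamycin and 0.928 ± 0.183 FPKM in DMSO; log2 difference 0.95 ± 0.15 SE, limma adjusted p = 0.000292). St3gal4, the sialyltransferase member with the highest mean over all 10 libraries, had 23, 28.1, 21.8, 23.9 and 26.9 FPKM in Tunicamycin, against 30.3, 26.1, 28.1, 25.4 and 32.1 FPKM in DMSO. These ranges overlapped and it was not called (log2 difference -0.19 ± 0.11 SE, limma adjusted p = 0.164), whereas with equal medians it was called lower (-0.42, limma adjusted p = 0.00407). Between St6gal1 and St3gal4 the log2 ratio of (FPKM + 1) was -2.78 ± 0.18 in Tunicamycin and -3.93 ± 0.26 in DMSO. An equal shift of all log2(FPKM + 1) values of a library cancels in it, but a scaling of FPKM before the + 1 does not. The difference of 1.15 between the groups was the largest of the 9 pairs (exact permutation p = 0.00794, adjusted 0.0179), although St3gal4 remained the higher gene in every library. It was 1.36 with TPM scaling, 1.03 with quantile normalization and 1.67 with a pseudocount of 0.1.

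St8sia4 had 3, 6.50, 6.73, 5.98 and 4.81 FPKM in Tunicamycin, against 2.13, 3.98, 4.08, 3.56 and 2.31 FPKM in DMSO. Tunicamycin replicate 1 lay within the DMSO range, and the difference of 0.60 ± 0.20 SE (limma adjusted p = 0.0310) was not called without any one of Tunicamycin replicates 2, 3 or 4 or DMSO replicates 1 or 5. St6galnac4 had 31, 28.5, 22.9, 23.0 and 29.3 FPKM in Tunicamycin, against 21.3, 23.6, 16.3, 20.2 and 17.8 FPKM in DMSO. It overlapped through DMSO replicate 2 (log2 difference 0.43 ± 0.13 SE, limma adjusted p = 0.0162). Its gene (chr2:32587095-32599698) ends just before St6galnac6 (chr2:32599709-32620806) on the same strand, so reads near the junction may be hard to assign.

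St3gal1 had 10, 13.9, 11.2, 11.3 and 11.8 FPKM in Tunicamycin, against 8.15, 9.15, 9.11, 9.71 and 7.69 FPKM in DMSO. The groups were close but did not overlap, with averages of 11.7 ± 1.45 FPKM in Tunicamycin and 8.76 ± 0.818 FPKM in DMSO (log2 difference 0.37 ± 0.11 SE, limma adjusted p = 0.0147), and its call was among those lost with equal medians. St3gal2 and St6galnac6 had positive differences, 0.26 and 0.23, and were not called (limma adjusted p = 0.0507 for St3gal2 and 0.1203 for St6galnac6), although both were without Tunicamycin replicate 1 (0.0144 and 0.0240), and St3gal2 also without DMSO replicate 5 (0.0458). St3gal3 and St3gal6 had negative ones, -0.07 and -0.32, and were not called (limma adjusted p = 0.733 for St3gal3 and 0.156 for St3gal6). St3gal6 ranged from 6 to 7.96 FPKM in Tunicamycin and from 6.54 to 13.6 FPKM in DMSO, with more spread among the DMSO libraries. St3gal6 over St3gal4 had a log2 ratio of -1.71 ± 0.12 in Tunicamycin and -1.58 ± 0.27 in DMSO, and it did not differ beyond that spread (exact permutation p = 0.373).

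**Figure D3:**
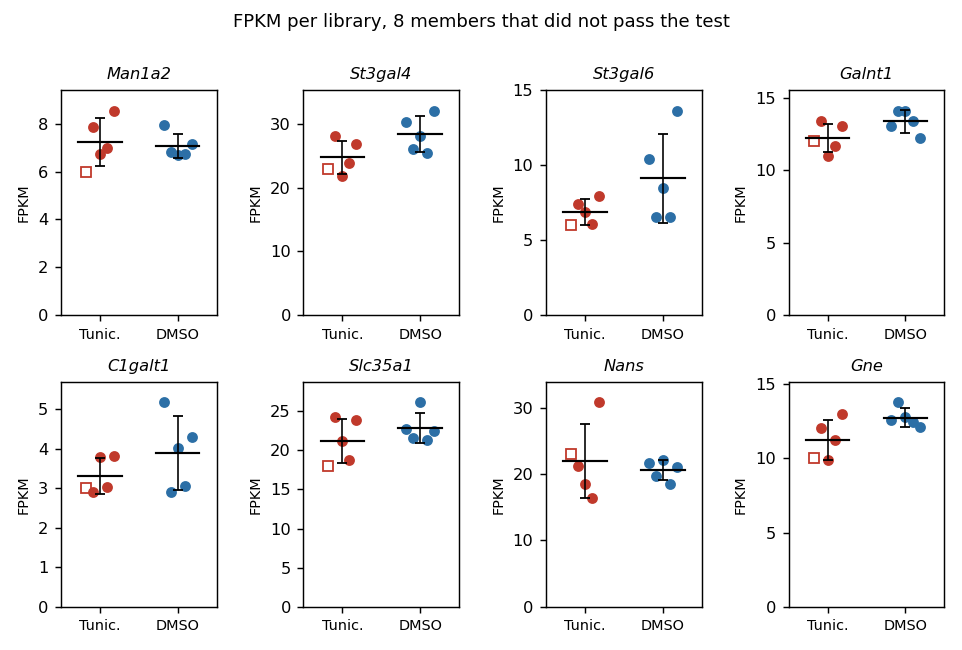
FPKM in each library of 8 members that were not called, Tunicamycin at the left of each panel and DMSO at the right, with the group mean and SD as bars and Tunicamycin replicate 1 as an open square. Tunicamycin and DMSO points overlap in each panel, for example for St3gal4 (21.8 to 28.1 FPKM in Tunicamycin, 25.4 to 32.1 FPKM in DMSO).

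GalNAc-transferases of the Galnt family set the first sugar of mucin-type O-glycans, each with its own preference for peptides. Of 7 members 6 were tested and 3 were called higher, where 29.9% of all genes tested were. Galnt3 and Galnt12 passed the filter through the Tunicamycin libraries alone, and 1 of the other 4 was called. Leaving out any treated library removes both from the test and leaves 1 call. Galnt3, known for protecting the hormone FGF23 from cleavage, had 2, 2.36, 1.96, 1.94 and 2.19 FPKM in Tunicamycin, against 0.557, 0.506, 0.621, 0.447 and 0.372 FPKM in DMSO. The groups were far apart at a low level (log2 difference 1.04 ± 0.14 SE, limma adjusted p = 8.5e-05), and with no filter on low values the limma adjusted p was 0.000216. Galnt12 had 1, 1.97, 1.17, 1.81 and 2.20 FPKM in Tunicamycin, against 0.745, 0.678, 0.985, 0.990 and 0.966 FPKM in DMSO. Tunicamycin replicate 1 and DMSO replicate 4 were almost equal (log2 difference 0.47 ± 0.17 SE, limma adjusted p = 0.0384), and of the 5 fits without 1 DMSO library it was called in 1, that without replicate 3. With no filter its limma adjusted p was 0.1201.

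Galnt11, whose promoter window is shown above, had 7, 13.1, 9.44, 10.3 and 13.0 FPKM in Tunicamycin, against 4.29, 6.52, 5.89, 6.91 and 4.39 FPKM in DMSO. The groups did not overlap, by a narrow margin between Tunicamycin replicate 1 and DMSO replicate 4 (log2 difference 0.80 ± 0.18 SE, limma adjusted p = 0.00275). Galnt1, the most abundant of the 7 members, had 12, 13.4, 11.0, 11.7 and 13.1 FPKM in Tunicamycin, against 13.1, 14.1, 14.1, 13.4 and 12.2 FPKM in DMSO. It was not called (log2 difference -0.12 ± 0.09 SE, limma adjusted p = 0.312) but was called lower with equal medians (-0.35, limma adjusted p = 0.00388). Galnt7 and Galnt10 were not called, with differences of 0.10 and 0.02, and Galnt2 did not reach the level for testing, at no more than 0.267 FPKM.

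The O-glycan is extended by C1galt1, which adds galactose and needs the chaperone C1galt1c1 (Cosmc) to fold, and is then branched by Gcnt1, while Gcnt2 makes the I branch on longer chains. Of these 4 members, all tested, 1 was called higher, which is 25%, near the 29.9% of all genes tested. Without Tunicamycin replicate 1 the count was 3, where 5841 of 14313 genes were called higher. Without Tunicamycin replicate 4 it was 2, where 3739 of 14067 genes were called higher. Gcnt1 had 14, 14.9, 15.8, 16.1 and 15.1 FPKM in Tunicamycin, against 9.06, 9.15, 10.5, 9.64 and 9.46 FPKM in DMSO. Both groups were tight and clearly apart (15.2 ± 0.818 FPKM in Tunicamycin and 9.56 ± 0.581 FPKM in DMSO; log2 difference 0.61 ± 0.09 SE, limma adjusted p = 0.000188). Gcnt2, the most abundant of the 4, had 41, 80.3, 79.0, 84.6 and 83.3 FPKM in Tunicamycin, against 35.4, 56.3, 61.1, 68.5 and 44.6 FPKM in DMSO. Tunicamycin replicate 1 sat among the DMSO libraries, far below the other treated ones; with it the difference was 0.45 ± 0.22 SE (limma adjusted p = 0.111), and without it 0.65 (limma adjusted p = 0.00840).

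C1galt1 had 3, 2.91, 3.80, 3.04 and 3.82 FPKM in Tunicamycin, against 5.17, 2.91, 4.01, 3.05 and 4.30 FPKM in DMSO, and its chaperone C1galt1c1 had 10, 14.8, 13.6, 11.01 and 16.3 FPKM in Tunicamycin, against 9.53, 10.1, 11.7, 9.72 and 9.85 FPKM in DMSO. Neither was called on its own (log2 difference -0.16 for C1galt1, limma adjusted p = 0.382, and 0.32 for C1galt1c1, limma adjusted p = 0.0625, or 0.0118 without Tunicamycin replicate 1 and 0.0474 without replicate 4). The log2 ratio of enzyme over chaperone was -1.70 ± 0.22 in Tunicamycin and -1.21 ± 0.30 in DMSO, a difference of -0.49 (exact permutation p = 0.0159, adjusted 0.0286). That pair lost its call without Tunicamycin replicate 2, 3 or 4, at adjusted p = 0.0595 without replicate 2 and 0.0571 without replicate 3 or 4, by the same exact test. St3gal1 competes with Gcnt1 for the O-glycan that C1galt1 makes, and the log2 ratio of Gcnt1 over St3gal1 was 0.36 ± 0.16 in Tunicamycin and 0.12 ± 0.12 in DMSO (exact permutation p = 0.0397, adjusted 0.0510), just short of the threshold.

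Sugar-nucleotide supply feeds the transferases. Gne starts sialic acid synthesis, Nans makes the acid, Cmas activates it to CMP-sialic acid in the nucleus, and Slc35a1 carries it into the Golgi; Slc35a2 carries UDP-galactose and Slc35c1 GDP-fucose. All 6 members were tested and 2 were called higher, which is 33.3%, near the 29.9% of all genes tested. The class median was 0.26 log2 units. Cmas had 12, 15.0, 14.5, 15.2 and 15.0 FPKM in Tunicamycin, against 7.54, 8.52, 5.44, 6.79 and 4.97 FPKM in DMSO. The treated libraries were close together and all above DMSO, with a fold of 2.16 (14.3 ± 1.33 FPKM in Tunicamycin and 6.65 ± 1.47 FPKM in DMSO; log2 difference 1.02 ± 0.14 SE, limma adjusted p = 0.000106). Slc35c1 had 20, 25.3, 19.8, 19.5 and 34.0 FPKM in Tunicamycin, against 9.93, 17.8, 16.2, 15.4 and 13.8 FPKM in DMSO, without overlap (log2 difference 0.65 ± 0.18 SE, limma adjusted p = 0.00989).

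The enzymes before Cmas and the transporter after it were not called. Gne had 10, 12.1, 9.85, 11.2 and 13.0 FPKM in Tunicamycin, against 12.6, 13.8, 12.8, 12.4 and 12.1 FPKM in DMSO (log2 difference -0.17 ± 0.10 SE, limma adjusted p = 0.183), and with equal medians it was called lower (-0.40, limma adjusted p = 0.000933). Nans averaged 22.0 ± 5.53 FPKM in Tunicamycin and 20.6 ± 1.48 FPKM in DMSO (limma adjusted p = 0.758). Slc35a1, with the highest mean of the 6 over all 10 libraries, had 18, 24.2, 21.2, 18.8 and 23.9 FPKM in Tunicamycin, against 22.7, 21.5, 26.1, 21.3 and 22.4 FPKM in DMSO. The groups overlapped (log2 difference -0.11 ± 0.11 SE, limma adjusted p = 0.456), and with equal medians it was called lower (-0.33, limma adjusted p = 0.00396). Slc35a2 had 8, 9.48, 6.70, 6.88 and 15.8 FPKM in Tunicamycin, against 5.67, 6.18, 6.90, 6.31 and 6.28 FPKM in DMSO. It averaged 9.37 ± 3.75 FPKM in Tunicamycin and 6.27 ± 0.438 FPKM in DMSO, with Tunicamycin replicate 5 far above the others (limma adjusted p = 0.0647, or 0.0398 without Tunicamycin replicate 3 and 0.0423 without replicate 4). The log2 ratio of Slc35a1 over Slc35a2 was 1.15 ± 0.36 in Tunicamycin and 1.71 ± 0.09 in DMSO, a difference of -0.56 (exact permutation p = 0.00794, adjusted 0.0179).

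**Figure D4:**
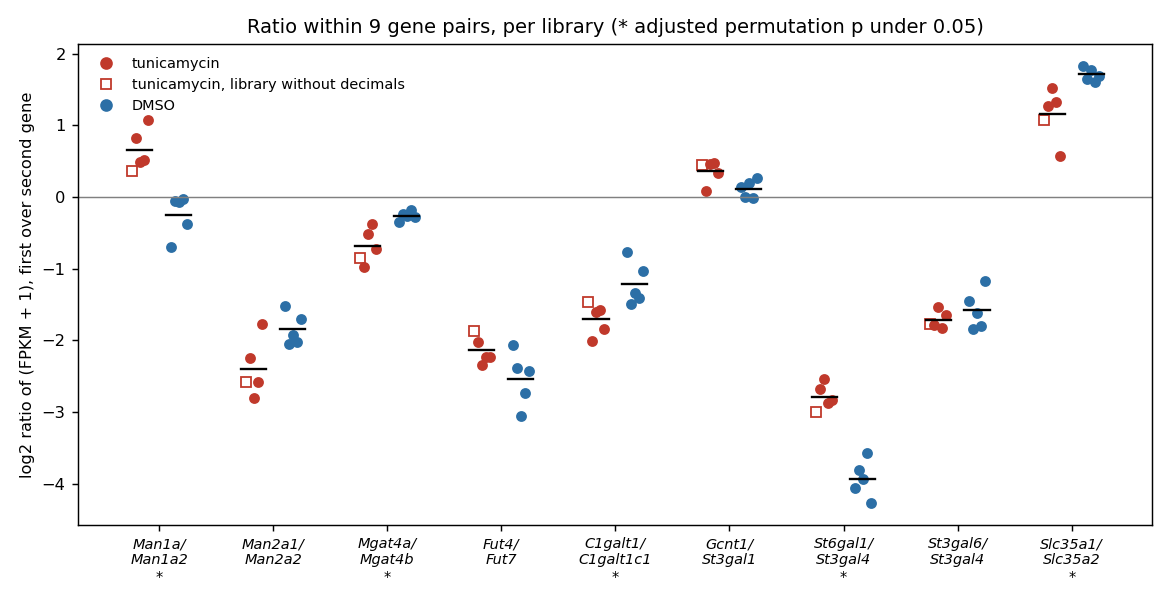
Log2 ratio of (FPKM + 1) of the first over the second gene of the 9 tested pairs, 1 point a library, Tunicamycin at the left and DMSO at the right of each pair of strips, with the group mean as a bar and Tunicamycin replicate 1 as an open square. The ratio of St6gal1 over St3gal4 is higher in all 5 Tunicamycin libraries than in any DMSO library, and that of Mgat4a over Mgat4b is lower.

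Of 12 pairs listed, 9 were tested and 5 passed. Man1a over Man1a2 and St6gal1 over St3gal4 were higher in Tunicamycin than in DMSO. Mgat4a over Mgat4b, C1galt1 over C1galt1c1 and Slc35a1 over Slc35a2 were lower. Since the pairs were chosen with earlier results of these data known, their p-values are not independent support. The other 3 pairs, Mgat3 with Mgat5, Galnt1 with Galnt2 and B4galt1 with B4galt5, hold a gene below the level for testing. By summed FPKM, mannosidases were at 50.2 on average in Tunicamycin and 30.8 in DMSO (fold 1.63), GlcNAc-transferases at 136 in Tunicamycin and 96.5 in DMSO (fold 1.41), and galactosyltransferases at 73.1 in Tunicamycin and 50.3 in DMSO (fold 1.45). Class sums did not overlap between groups for these 3, the fucosyltransferases and, by a margin of less than 1 FPKM, the sialyltransferases. They overlapped for the GalNAc-transferases (fold 1.22), the O-glycan core and branch enzymes (fold 1.37) and the sugar-nucleotide genes (fold 1.22). A class sum is carried by its most abundant genes: Gcnt2 gave 73.6 of 105 FPKM in Tunicamycin and 53.2 of 76.8 FPKM in DMSO for the O-glycan core and branch enzymes.

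**Figure D5:**
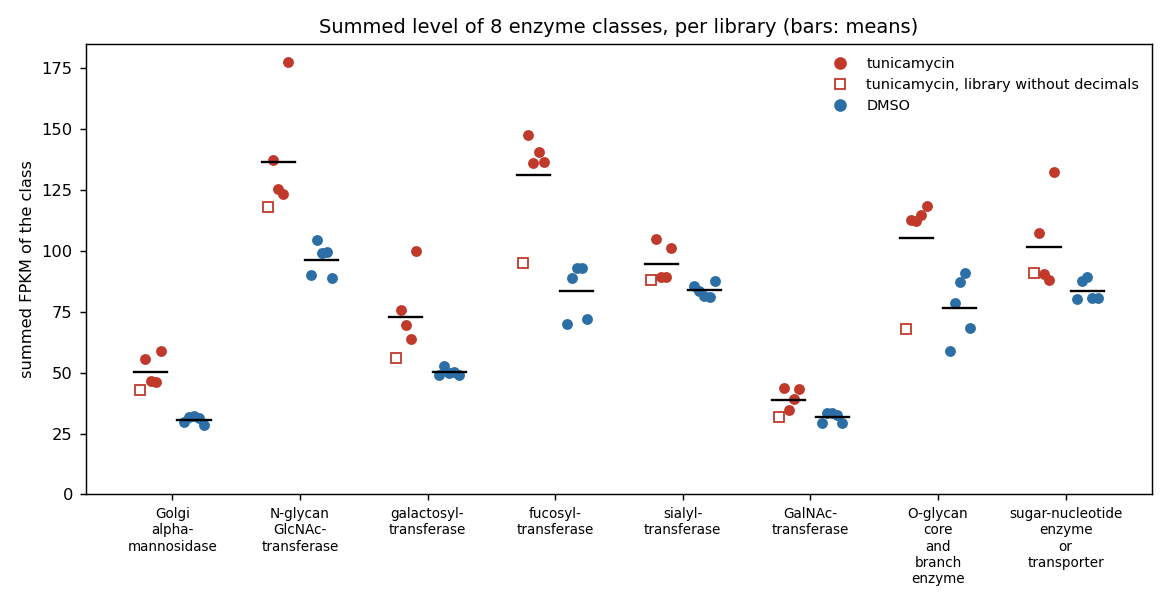
Summed FPKM of each of the 8 enzyme classes, 1 point a library, Tunicamycin at the left and DMSO at the right of each pair of strips, with the group mean as a bar and Tunicamycin replicate 1 as an open square. The mannosidase sum is 43 to 59.1 FPKM in Tunicamycin and 28.7 to 32.2 FPKM in DMSO, while the sums of the last 3 classes overlap between the groups.

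Among 71 further genes of the same pathways, 43 were tested, 25 were called higher and 6 lower, with a median of 0.41 log2 units. That is 58.1% called higher, against 29.9% of all genes tested, and 6 of 43 called lower, against 15.4% of all genes. Without the 2 DMSO libraries that lack Xist the counts were 15 higher and 3 lower. In that setting 3130 of 14157 genes were called higher and 1614 lower. Gfpt2, which controls entry into the hexosamine pathway that makes UDP-GlcNAc, had 3, 7.16, 4.94, 6.29 and 6.39 FPKM in Tunicamycin, against 1.73, 2.18, 1.89, 1.83 and 1.96 FPKM in DMSO. Nagk, the kinase that salvages GlcNAc, had 24, 29.9, 21.4, 18.6 and 35.1 FPKM in Tunicamycin, against 8.05, 11.8, 11.4, 11.1 and 8.79 FPKM in DMSO. Neither overlapped, and Gfpt2 and Nagk rose by 1.13 and 1.24 log2 units (limma adjusted p = 0.000304 and 0.000116), while Uap1, the last step, fell by 0.47 (18.8 ± 1.46 FPKM in Tunicamycin and 26.4 ± 1.402 FPKM in DMSO, limma adjusted p = 0.00141). In sialic acid turnover, Renbp, the renin-binding protein and an epimerase of N-acetylglucosamine, rose by 1.43 and the lysosomal sialidase Neu1 by 1.23 (limma adjusted p = 2.62e-05 and 1.73e-05), and the membrane sialidase Neu3 fell by 0.52 (limma adjusted p = 0.00985). Neu1 had 29, 28.9, 23.4, 21.8 and 23.7 FPKM in Tunicamycin, against 8.79, 12.8, 10.6, 10.3 and 8.82 FPKM in DMSO, and the treated libraries lay far above. Renbp had 34, 36.6, 30.2, 24.7 and 42.2 FPKM in Tunicamycin, against 10.02, 13.1, 13.9, 13.0 and 9.04 FPKM in DMSO. Tests of the GDP-fucose genes called 2 of 5 higher, Gmds, the first enzyme of GDP-fucose synthesis, and Slc35c2. That is 40%, near the 29.9% of all genes tested. Ugp2, Galk1 and Galt, which supply UDP-galactose, were also called higher.

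Of the other family members 24 of 33 were below the level for testing. St3gal5, which makes the ganglioside GM3 from lactosylceramide, had the largest fall of these lists, with 17, 12.2, 6.96, 8.74 and 11.7 FPKM in Tunicamycin, against 28.9, 29.8, 21.6, 26.8 and 34.0 FPKM in DMSO. All treated libraries lay below all DMSO libraries (11.3 ± 3.84 FPKM in Tunicamycin and 28.2 ± 4.54 FPKM in DMSO; log2 difference -1.29 ± 0.20 SE, limma adjusted p = 0.000252). Galnt18 and B3gnt3 rose by 1.03 each (limma adjusted p = 0.0135 and 0.00216), and Tunicamycin replicate 2 was highest for both, at 7.27 FPKM for Galnt18 and 5.94 FPKM for B3gnt3. Both Galnt18 and B3gnt3 overlapped between the groups, and Galnt18 was not called without the DMSO libraries lacking Xist (limma adjusted p = 0.0870). Of the transferases that extend O-linked fucose, Lfng and Mfng, which modify Notch, were called higher, their relative Rfng was not (log2 difference -0.01, limma adjusted p = 0.960), and B3glct, which adds glucose to the fucose set by Pofut2, fell by 0.58 (limma adjusted p = 0.00486). In the same libraries Pofut2 was higher, as given above.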

How the data were processed

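RNA-seq values were deposited by the authors as 1 table of FPKM per gene for 5 Tunicamycin and 5 DMSO libraries. The submitters' processing notes name Bowtie 0.12.9, Cufflinks 2.1.1, HTSeq, DESeq2 and mm10, with no role or order. The deposited column of Tunicamycin replicate 1 holds whole numbers only and is recorded as a score with the magnitude of FPKM, which makes its values below a few FPKM coarse. No count test was made, since the deposited values are not counts; differential calls here come from limma alone.

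Ensembl identifiers were named with GENCODE M21 (51389 of 51670 matched). Genes at 1 FPKM or more in at least 5 of 10 libraries (14727) were tested on log2(FPKM + 1) with limma 3.58.1 in R 4.3.3 (empirical Bayes with trend, group as the single term), with Benjamini-Hochberg adjustment over all genes tested and a threshold of 0.05. The + 1 understates the change of low genes. The fit was tested on simulated data made from these libraries, with 50 genes changed at each of several sizes. It recovered 0% of changes of 0.3, 14% of 0.5, 68% of 1 and 96% of 2 log2 units. Of its calls 5.32% were false. Far fewer genes were changed there than were called here, so these shares need not hold for the real data. Ratios within gene pairs were tested by exact permutation over all assignments of libraries to groups. Summed FPKM per library ran from 4.37e+05 to 4.993e+05, and 13464 to 18378 genes reached 1 FPKM. Read depth was estimated from the smallest steps between values, which were whole reads within 0.05 for 86.3% to 96.2% of the values examined; this could not be done for Tunicamycin replicate 1.

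Per-library values are given for up to 3 called members per enzyme class with the largest change and for the member of each class with the highest mean over all libraries; genes of the listed pairs and linked genes called with a log2 change of at least 1 are named, and any other gene given with per-library values was chosen after its values were seen. The members, the linked and marker lists and the pairs were chosen with earlier results of these data known. Alternatives were another pseudocount (0.1), no filter, quantile, TPM and equal-median scaling, a replicate block, leaving out each library, and leaving out the libraries without Xist. Leaving out Tunicamycin replicate 1 together with those, and dropping decimals in every library, were added after seeing the data.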

Additional observations from a re-analysis of the deposited data

Results flagged for a closer look

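Among 92 groups of 5 values (46 members in Tunicamycin and in DMSO), 7 held a library whose gap to the nearest other library exceeded the critical share of the group's range in Dixon's test, a limit that chance passes in about 1 in 20 groups. Of these, 3 were Tunicamycin replicate 1, the library without decimals, each time at the low end: Gcnt2 at 41 FPKM where the other treated libraries had 79.0 to 84.6, Cmas at 12 FPKM where they had 14.5 to 15.2, and St6galnac6 at 7 FPKM where they had 8.86 to 9.49. B4galt7 reached 13.86 FPKM in Tunicamycin replicate 5, against 9 to 10.2 in the other treated libraries. In DMSO, Man2a2 was 6.622 FPKM in replicate 5 (8.06 to 8.63 in the others), Fut11 was 7.46 FPKM in replicate 1 (9.09 to 9.60 in the others), and C1galt1c1 was 11.66 FPKM in replicate 3 (9.53 to 10.1 in the others). DMSO replicate 5 is also a library without Xist, and so is DMSO replicate 3. What sets these values apart was not tested.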

How the results depend on the processing

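Direction and call of the counts and ratios were compared with 19 other settings. Members called higher numbered 14 with no filter, 14 with equal medians and 14 with only the libraries that have Xist, and members called lower numbered 7 with quantile normalization and 6 with equal medians. With no filter 3375 of 51539 genes were called higher. Genes called lower in all numbered 3767 with quantile normalization and 4035 with equal medians, scalings that bring the median of all genes to -0.01 and -0.05 log2 units (0.305 with TPM). Linked genes called higher numbered 15 with only the libraries that have Xist, and those called lower 3, and also 3 without Tunicamycin replicate 1 as well. Over the 10 fits without 1 library, members called higher ranged from 16 to 28 and lower from 0 to 0, linked genes from 19 to 27 higher and 5 to 6 lower, and all genes from 3294 to 5841 higher and 1891 to 2510 lower.

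With only the libraries that have Xist, and then without Tunicamycin replicate 1 as well, fewer assignments exist and none of the 9 pairs reached an adjusted p under 0.05 in the exact test: Man1a over Man1a2 gave 0.91 and 0.98, Mgat4a over Mgat4b -0.43 and -0.39, C1galt1 over C1galt1c1 -0.47 and -0.53, St6gal1 over St3gal4 1.03 and 1.08, and Slc35a1 over Slc35a2 -0.54 and -0.53. St3gal6 over St3gal4 changed sign to 0.0076 in the smaller set. With decimals dropped, C1galt1 over C1galt1c1 (-0.61) was lost, while Fut4 over Fut7 (0.73) and Gcnt1 over St3gal1 (0.25) passed. Fut4 over Fut7 also passed with a pseudocount of 0.1 (0.75) and TPM (0.54), and Man2a1 over Man2a2 (-0.64) and Gcnt1 over St3gal1 (0.27) passed with quantile normalization. Over the fits without 1 library the ratios ranged from 0.78 to 0.97 for Man1a over Man1a2, -0.71 to -0.46 for Man2a1 over Man2a2 (passing without Tunicamycin replicate 5), -0.50 to -0.35 for Mgat4a over Mgat4b, 0.26 to 0.51 for Fut4 over Fut7 (passing without DMSO replicate 1), -0.56 to -0.38 for C1galt1 over C1galt1c1, 0.21 to 0.31 for Gcnt1 over St3gal1 (passing without Tunicamycin replicate 2), 1.06 to 1.24 for St6gal1 over St3gal4, -0.20 to -0.03 for St3gal6 over St3gal4 and -0.65 to -0.41 for Slc35a1 over Slc35a2. The cause of these changes was not tested.

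Members that were not called and whose difference changed sign with quantile normalization and equal medians were Man1a2 (-0.20 and -0.21), Mgat4a (-0.13 and -0.12), Pofut1 (-0.19 and -0.18), Galnt7 (-0.12 and -0.13), Galnt10 (-0.23 and -0.20) and Nans (-0.078 and -0.17). Over the fits without 1 library the difference also changed sign for Man1a2 (-0.036 to 0.077), Galnt10 (-0.052 to 0.090), Nans (-0.063 to 0.15) and St3gal3 (-0.13 to 0.046). St3gal3 was at 0.0055 and Slc35a1 at 0.016 with TPM, and at 0.097 and 0.0036 in the libraries with Xist and decimals.

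Replicate numbers were not taken to pair the samples, since the correlation of deviations exceeded 0.1 for numbers 1 and 2 (0.248 and 0.232, each library the other's best partner) and not for the other 3 (0.0207 to 0.085). With the replicate number as a block the counts were 20 members higher and 0 lower, 24 linked genes higher and 6 lower, and 4553 genes higher and 2248 lower; Man2a1, B4galt7 and Galnt12 were no longer called and Gcnt2 was (limma adjusted p = 0.0141). No block was used for the ratios, since the smallest p over 5 pairs would be 0.0625. With 5 libraries a group and 1 of them in whole numbers, small changes may go uncalled, in low genes and in others.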
